A study of Mus musculus with 10 samples.

Results

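The comparison covered the stratum intermedium of mice lacking claudin-10 (KO) against that of wild-type mice (WT), 3 KO libraries against 2 WT libraries. Its members were all genes with a mean of at least 10 normalized counts over the 5 stratum intermedium libraries, which took in 16543 of the 16638 genes listed for this layer and of the 17305 genes listed for either layer. The series measured polyadenylated RNA in 10 libraries from 5 mice, with ameloblasts and stratum intermedium captured separately by laser from frozen sections of hemi mandibles. The labels name the genotypes only as WT or KO for claudin 10. They state no allele, strain, age, tooth or stage of enamel formation, nor which part of the gene is missing. The libraries are called here by the replicate numbers of this layer, WT 1, WT 2, KO 1, KO 2 and KO 3. Each carries its own mouse number in its library name, so the tests measure spread between 5 mice, with 1 capture per mouse.

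The stratum intermedium is the epithelial layer that lies against the basal ends of the ameloblasts, the cells that secrete and later mineralise enamel. It is known for tissue-nonspecific alkaline phosphatase and for Notch signalling, and its cells are tied to the ameloblasts and to one another by desmosomes and gap junctions. Claudin-10 is a tight junction protein whose isoforms form paracellular channels for cations or for anions. The comparison asked which transcripts of this supporting layer differ when claudin-10 is missing.

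Cldn10 itself had 7257 and 2365 normalized counts in WT 1 and WT 2, and 387, 1003 and 465 in KO 1, KO 2 and KO 3. Every KO library lay below both WT libraries. The mean was 4811 ± 3459 (SD, n = 2) in WT and 618 ± 335 (SD, n = 3) in KO. On the log2(normalized count + 1) scale the difference was -2.87 (SE 0.56), which left 13.7% of the WT level. The limma test gave an unadjusted p = 0.0012 and a Benjamini-Hochberg adjusted p = 1 over all genes. An exact two-sided permutation test over the 10 arrangements of the libraries gave p = 0.1, the smallest it can give. Cldn10 lies on GRCm38 chromosome 14 from 118787908 to 118875489, plus strand, and 1 value per gene was listed, which does not tell its start sites or isoforms apart. Because the deleted part is not stated, the remaining counts show only that RNA was assigned to the gene in all 3 KO libraries. In the ameloblasts of the same mice the log2 difference was -1.38, and the test of the difference between the layers gave -1.49 (limma, unadjusted p = 0.20, adjusted p = 0.864).

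The 3 other genes that mark the layer overlapped between the genotypes. Alpl, which encodes alkaline phosphatase, had 26092 and 20948 normalized counts in WT and 16866, 31622 and 18039 in KO. Its log2 difference was -0.14 (limma, unadjusted p = 0.657). Notch1, a receptor of the Notch pathway, had 1291 and 747 in WT and 683, 1274 and 947 in KO. Krt17, an epithelial keratin, had 36325 and 7482 in WT and 13027, 45342 and 11552 in KO. For both Notch1 and Krt17, WT 1 and KO 2 were the high libraries, with WT 2 and the other KO libraries below them. The log2 differences were -0.07 for Notch1 and 0.20 for Krt17, each smaller than its standard error (0.36 and 0.77).

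**Figure D1:**
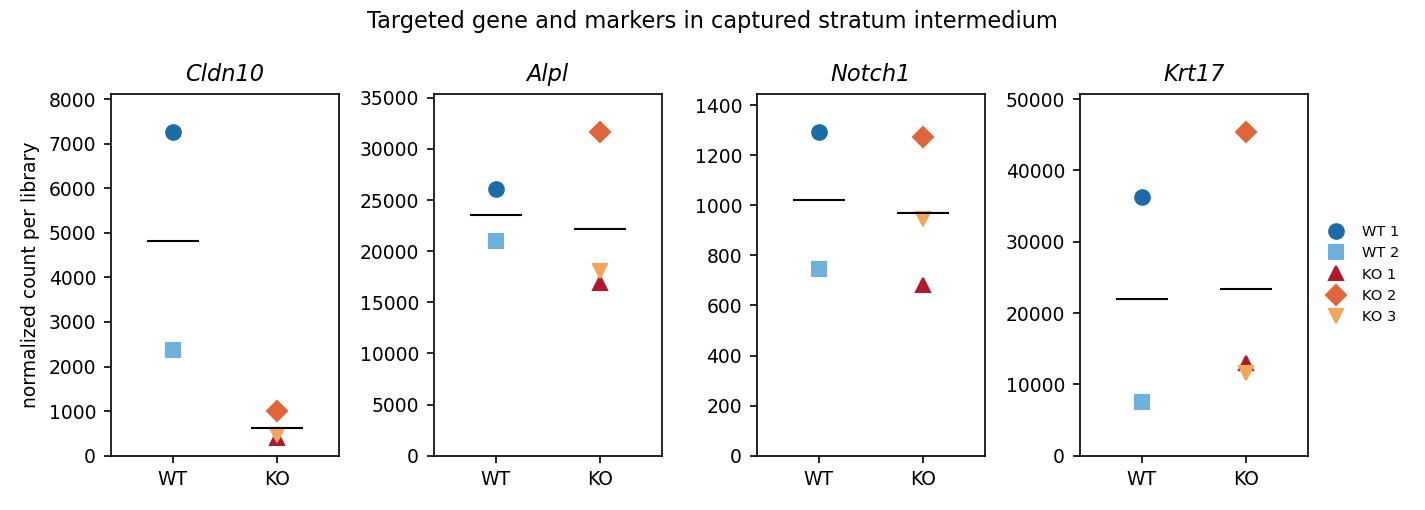
Normalized counts of Cldn10, Alpl, Notch1 and Krt17 (vertical axes, linear and starting at 0) in the 2 WT and 3 KO stratum intermedium libraries, 1 symbol per library, with the group mean as a bar. Cldn10 lies between 387 and 1003 in KO and at 2365 and 7257 in WT, while the other genes overlap between the genotypes.

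The captures were checked against lists of marker genes, as the share of each library's normalized counts. The 13 stratum intermedium markers took 1.21% and 0.505% in WT and 0.544% to 1.02% in KO. None of the 13 separated the genotypes, and WT 1 and KO 2 held the highest shares. In the ameloblast libraries of the same mice they took 0.404% to 0.966%, a range that overlaps this one, so the summed share of these markers did not set the captures of the layers apart. Secretory ameloblast markers took 0.138% to 0.961% here against 2.26% to 9.24% in the ameloblast libraries of the same mice. Genes of mineralised tissue and mesenchyme were also present. The 10 odontoblast and pulp markers took 1.88% in WT 1 and 5.16% in WT 2, with the KO libraries between them (2.85% to 3.28%), and the fibroblast markers likewise took 2.10% and 5.25% in WT and 3.21% to 3.68% in KO. Osteoclast markers ranged from 0.189% to 0.929% and red blood cell markers from 0.146% to 0.911%, WT 1 being lowest and WT 2 highest for both. Skeletal muscle markers took 0.141% and 0.444% in WT and 0.911%, 0.699% and 0.257% in KO. The listed totals ran from 21006977 to 24053340 normalized counts per library, and the sequencing depth is unknown because the values were scaled. WT 1 and KO 2 both stood apart from the other libraries. WT 1 had 854 of the listed genes at 0 and KO 2 had 633, against 36 to 210 in the other 3. Across genes, WT 1 correlated at 0.837 to 0.869 and KO 2 at 0.837 to 0.877 with the other libraries, whereas WT 2, KO 1 and KO 3 correlated at 0.918 to 0.947 with one another. The library names also carry a group number that the labels do not explain, shared by WT 2 and KO 1 (group 1) and by WT 1 and KO 3 (group 2), with KO 2 alone in group 3. By Xist and Ddx3y, KO 1 and KO 2 came from females and the other 3 libraries from males. Both WT libraries are thus male and females occur only in KO. Sex and genotype can therefore not be fully told apart, and sex is also part of the KO spread. In captured tissue, fewer cells of a type and less RNA per cell cannot be told apart.

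**Figure D2:**
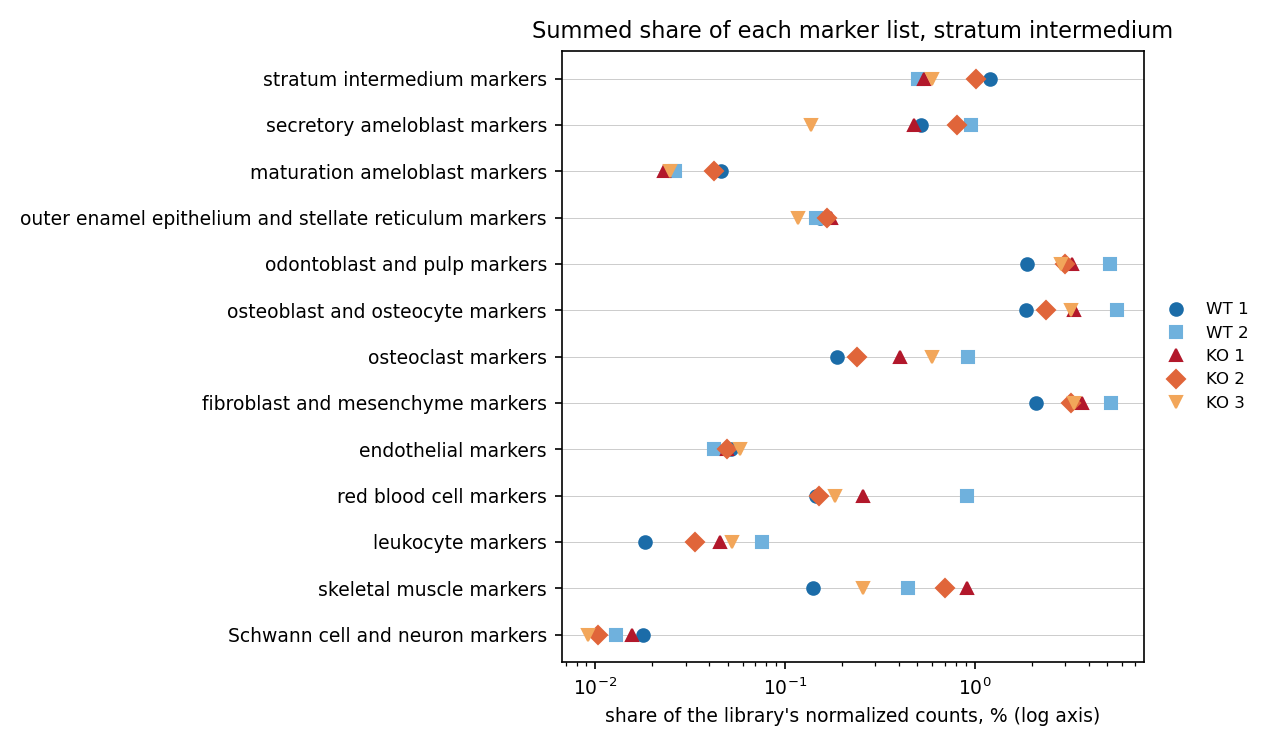
Summed share of each library's normalized counts (horizontal axis, percent, log scale) taken by 13 lists of cell type markers in the 5 stratum intermedium libraries, 1 symbol per library. The WT libraries lie at opposite ends for osteoclast markers (0.189% and 0.929%), and the stratum intermedium markers range from 0.505% to 1.21%.

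No gene passed a Benjamini-Hochberg adjusted p of 0.05 in the limma fit (0% of 16543 genes, smallest adjusted p = 0.404). At an unadjusted p under 0.05 there were 340 genes, of which 210 (1.27%) were higher and 130 (0.786%) were lower in KO. The genotypes did not overlap, every KO library above or below both WT libraries, for 1283 higher genes (7.76%) and 1231 lower genes (7.44%). The median log2 difference of all genes was 0.017, with 51.9% of genes on the higher side. The count at unadjusted p under 0.05 rested on the libraries used. It was 1713 without WT 2, of which 1410 were higher, and 496 without WT 1, of which 283 were lower. Females occur only as KO 1 and KO 2. With sex as a covariate, the genotype difference is therefore that of KO 3 against the 2 WT libraries.

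The gene with the smallest p was Zfp865, which encodes a zinc finger protein. It had 1068 and 1108 normalized counts in WT and 61.3, 26.8 and 42.0 in KO. All 3 KO libraries lay far below both WT libraries, with a log2 difference of -4.69 (SE 0.50, limma, unadjusted p = 2.44e-05, adjusted p = 0.404, lower in 3 of 3 KO libraries). The KO level was 3.86% of the WT level. In the ameloblasts of the same mice it had 170 and 208 in WT and 197, 108 and 133 in KO, which overlapped, in a table normalized separately. The stratum intermedium of WT mice was the only group of the 4 in which every library was high. Zfp865 also had the smallest p of all 15567 genes in the test between the layers, a difference of -4.28 (SE 0.28, limma, unadjusted p = 1.69e-05, adjusted p = 0.263). It lies on chromosome 7 from 5020376 to 5036768, plus strand, where its gene body overlaps Ccdc106 on the same strand and Zfp784 on the other. Ccdc106 had 365 and 129 in WT and 323, 418 and 354 in KO. Zfp784, another zinc finger gene, had 244 and 306 in WT and 171, 100.1 and 169 in KO, every KO library lower (log2 difference -0.94). The sources used here do not state whether the strands were kept apart in counting.

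The other lower genes named by smallest p were of several kinds, and none passed the adjusted threshold. Setdb2, which encodes a SET domain protein of the lysine methyltransferase family, had 367 and 326 in WT and 91.0, 75.2 and 111 in KO (log2 difference -1.91, SE 0.43). In ameloblasts it had 209 and 139 in WT and 227, 198 and 338 in KO. The Setdb2 groups did not overlap in the stratum intermedium and overlapped in ameloblasts, and the difference between the layers was -2.45 (limma, unadjusted p = 0.000431, adjusted p = 0.864). Abca8a, an ATP-binding cassette transporter, had 296 and 462 in WT and 114, 75.3 and 124 in KO (-1.85). Its ameloblast difference was of like size (-1.96), and the test between the layers gave 0.11 (limma, unadjusted p = 0.842). Abcb9, a peptide transporter of lysosomes, had 190.0 and 112 in WT and 29.6, 20.9 and 22.5 in KO (-2.55). The KO libraries of Abcb9 lay close together, with no overlap. In ameloblasts the Abcb9 difference had the other sign (1.46), and the difference between the layers was -4.01 (limma, unadjusted p = 0.00487, adjusted p = 0.864).

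Among cytoskeletal and signalling genes, Myo10, a myosin of filopodia, had 3806 and 4537 in WT and 2534, 2481 and 2751 in KO (-0.68, SE 0.18). Dock8, an activator of the small GTPase Cdc42, had 426 and 306 in WT and 135, 133 and 152 in KO (-1.36). Both had KO libraries close together and below both WT libraries. Zfp992, a zinc finger gene, had 301 and 233 in WT and 56.6, 51.3 and 118 in KO (-1.90). Tmem170b had 740.4 and 755 in WT and 352, 362 and 491 in KO (-0.91), and Fam234a had 2250 and 2281 in WT and 1140, 1542 and 1545 in KO (-0.70). The WT libraries of each of these last genes lay close together, above every KO library. Fam177a2 had 606 and 335 in WT and 23.0, 0 and 49.7 in KO (-5.40). It is uncertain as a single gene, because its close relative Fam177a had 1087 and 634 in WT and 1097, 1453 and 1584 in KO, and the counting could split reads between them. Summed, the pair had 1693 and 968 in WT and 1120, 1453 and 1634 in KO, which overlapped (log2 difference 0.11).

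On the higher side, the largest differences belonged to genes with few counts in WT. Gpld1, a phospholipase that cleaves glycosylphosphatidylinositol anchors, had 4.3 and 10.9 in WT and 99.5, 121 and 110.0 in KO (log2 difference 3.80, SE 0.79). Its KO libraries lay within a narrow range and far above both WT libraries. Caln1, a calcium-binding protein known from neurons, had 0 and 1.6 in WT and 40.0, 58.1 and 82.4 in KO (5.19, SE 1.22). Since WT 1 was listed at 0, the size of the Caln1 difference depends on the added count of 1. Myh1, a myosin heavy chain of skeletal muscle, had 92.1 and 13.2 in WT and 487, 937 and 222 in KO (3.69, SE 0.91). The Myh1 groups did not overlap, but it is a member of the skeletal muscle markers, of which 12 of 13 were on the higher side in KO with a median of 1.11. Acta1, skeletal muscle actin, had 12828 and 39631 in WT and 85798, 64843 and 22135 in KO, and Tcap, a titin-binding protein, had 606 and 549 in WT and 1729, 995 and 820.2 in KO. Acta1 overlapped through KO 3 and Tcap did not. The size of this difference moved with the libraries and the fit. The median of the muscle markers was 0.17 without WT 1, 1.97 without WT 2 and 0.99 with library group as a block. It was 0.05 with sex as a covariate, a fit that sets KO 3 alone against WT. Of the 13, 2 were higher without overlap (15.4%, against 7.76% of all genes). At an unadjusted p under 0.05 (limma) 2 were higher, beside 210 of all 16543 genes. That count was 10 with library group as a block (308 of 16543 genes) and 1 without KO 1 (114 of 16475 genes). In the ameloblasts of the same mice 13 of 13 were higher, with a median of 1.09. Their summed share there was 0.0248% in WT 1 and 0.472% in WT 2, and 0.263%, 0.343% and 0.0935% in KO 1, KO 2 and KO 3. WT 1 was thus the lowest of these ameloblast libraries and WT 2 the highest. No muscle marker was at 0 in any stratum intermedium library.

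Smaller differences on the higher side belonged to genes well above the filter in both genotypes. Masp1, a serine protease of the lectin complement pathway, had 312 and 210.1 in WT and 668, 525 and 721 in KO (1.30, SE 0.32). Tarsl2, related to threonyl-tRNA synthetase, had 116 and 115 in WT and 281, 382 and 286 in KO (1.43, SE 0.38). Every KO library of Tarsl2 was above both WT libraries, and in ameloblasts the difference was -0.34 (test between the layers 1.77, limma, unadjusted p = 0.015, adjusted p = 0.864). Its gene body overlaps Tm2d3 on the same strand, which had 1952 and 1564 in WT and 1846, 2364 and 1845 in KO. Insl6, a peptide of the insulin and relaxin family, had 197 and 211 in WT and 514, 384 and 637 in KO (1.29). Calca, which encodes calcitonin and calcitonin gene-related peptide, had 222 and 108 in WT and 455, 405 and 415 in KO (1.45). For both peptide genes the lowest KO library lay well above the higher WT library. Arxes2, on chromosome X, had 2291 and 1491 in WT and 3970, 2829 and 4549 in KO (1.00). Its neighbour and close relative Arxes1 had 1383 and 544 in WT and 1132, 907 and 1194 in KO, which overlapped, and the split of reads between the pair is uncertain. Gng2, a G protein gamma subunit, had 1070.3 and 743 in WT and 1600.4, 1560.2 and 1563 in KO (0.82, SE 0.24). Sulf2, an extracellular sulfatase that trims heparan sulfate, had 1519 and 1580 in WT and 2762, 2226 and 2427 in KO (0.67, SE 0.20). The unadjusted limma p of the 12 higher genes ran from 0.00179 (Gpld1) to 0.0107 (Sulf2), and the adjusted p was 1 for each.

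Bub1b and Fam83d, both proteins of mitotic spindle control, were among the 12. Bub1b had 244 and 265 in WT and 583, 446 and 582 in KO (log2 difference 1.06, SE 0.30). Fam83d had 382 and 430 in WT and 785, 756 and 973 in KO (1.04, SE 0.26), and the ameloblast difference of Fam83d was 0.94. Neither overlapped between the genotypes in the stratum intermedium. Over the 24 cell cycle genes, 22 were on the higher side with a median of 0.22, but only Bub1b had an unadjusted p under 0.05 and only Bub1b was higher without overlap (4.17% of the list, against 7.76% of all genes). Mcm2, a subunit of the replicative helicase, had 490.1 and 414 in WT and 399, 242 and 332 in KO, every KO library lower, while its partner Mcm3 had 146 and 596 in WT and 542, 524 and 530 in KO. Top2a, a topoisomerase of dividing cells, had 3578 and 2439 in WT and 3153, 2296 and 4043 in KO. KO 3 was the highest library for most of the list. The median was -0.15 without WT 2 and -0.04 without KO 3, but 0.61 without WT 1 and 0.51 with library group as a block. It was 0.79 with sex as a covariate, a fit that sets KO 3 alone against WT. With library group as a block, 4 of the 24 had an unadjusted p under 0.05 (limma), all higher. Over all genes, 308 of 16543 were higher at that threshold in the same fit.

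**Figure D3:**
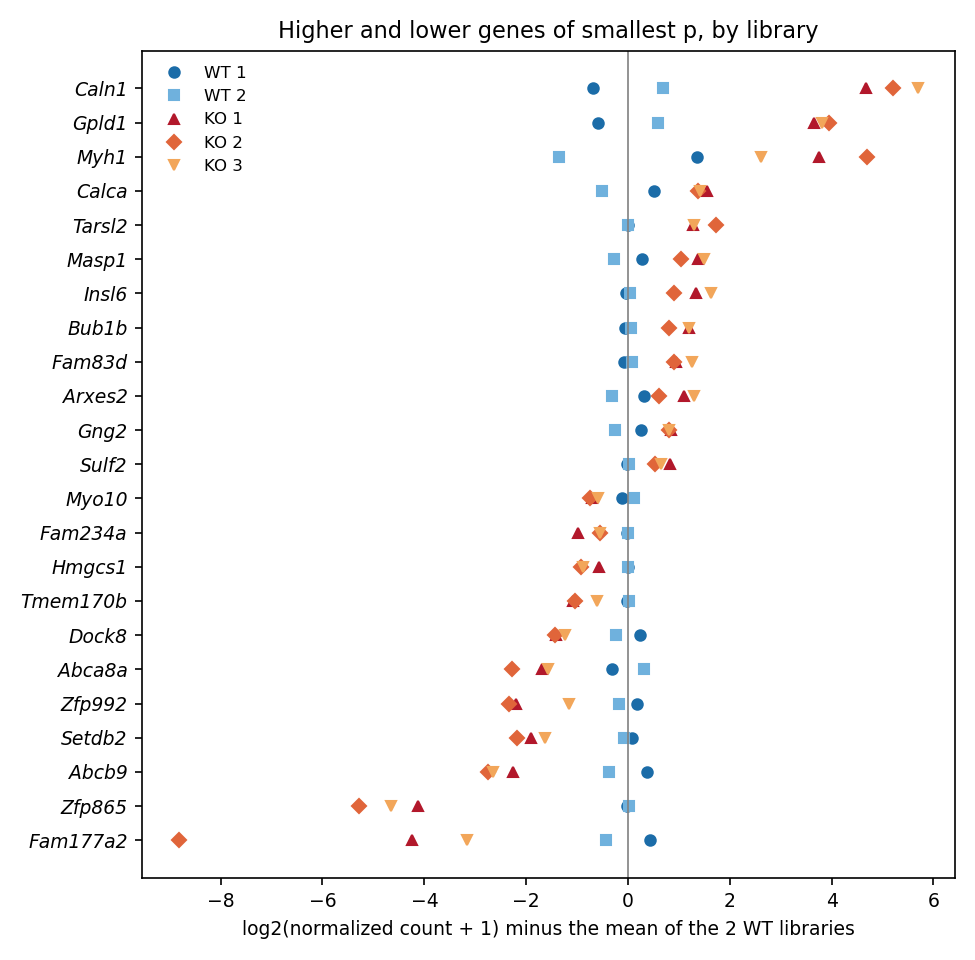
Log2(normalized count + 1) of each stratum intermedium library minus the mean of the 2 WT libraries (horizontal axis) for 12 higher and 11 lower genes of smallest p among those whose genotypes do not overlap, 1 symbol per library. The KO symbols lie on 1 side of both WT symbols by construction, and the log2 differences run from -5.40 (Fam177a2) to 5.19 (Caln1).

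Cholesterol synthesis genes stood lower in KO as a list. Of the 18 genes, 17 were on the lower side and only Pmvk was higher, with a median log2 difference of -0.55 beside 0.017 for all genes. The genotypes did not overlap for 11 of the 18 (61.1%, against 7.44% of all genes), all lower, and 6 (33.3%, against 0.786%) were lower at an unadjusted p under 0.05. No member passed the adjusted threshold (limma, adjusted p = 1 for each). Cells make cholesterol from acetyl groups through mevalonate, isoprenoids and squalene. When sterols are scarce, the transcription factor SREBP-2 is released from the endoplasmic reticulum and switches on most of these genes, usually together with the factor NF-Y, which binds CCAAT boxes.

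Promoter sequence was available for 12 of the 18 genes in RefSeq (GRCm38.p6), as the 250 bases before each annotated start, including Hmgcs1 and Insig1 of the 6 with the smallest p. Windows were searched on both strands for CCAAT, which reads ATTGG on the other strand, and for TCACNCCAC, a spelling of the sterol regulatory element. CCAAT was found in at least 1 window of 12 of the 12 genes, and in 12 of their 15 windows (80.0%). It was found in 40.3% of tested genes that have a window and in 34.9% of their windows. TCACNCCAC was found only in Hmgcs1 among the 12, and in 1.24% of tested genes. The stretches of 3 genes of the mevalonate steps are printed 5' to 3' on the gene's strand to show where the matches lie, with both motifs in capitals. A match is a description of letters and not a measured binding site.
Hmgcs1 (chr13:119690101-119690350, plus strand): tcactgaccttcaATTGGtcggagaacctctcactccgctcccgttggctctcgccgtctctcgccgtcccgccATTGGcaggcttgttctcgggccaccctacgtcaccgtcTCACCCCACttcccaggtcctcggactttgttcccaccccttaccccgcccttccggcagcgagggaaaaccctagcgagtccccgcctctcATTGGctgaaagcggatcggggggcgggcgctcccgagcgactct
Mvk (chr5:114444019-114444268, plus strand): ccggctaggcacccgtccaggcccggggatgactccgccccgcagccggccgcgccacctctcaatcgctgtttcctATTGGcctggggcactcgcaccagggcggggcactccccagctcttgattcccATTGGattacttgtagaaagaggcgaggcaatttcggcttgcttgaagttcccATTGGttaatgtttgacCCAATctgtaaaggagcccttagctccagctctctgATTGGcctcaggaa
Mvd (chr8:122443423-122443672, minus strand): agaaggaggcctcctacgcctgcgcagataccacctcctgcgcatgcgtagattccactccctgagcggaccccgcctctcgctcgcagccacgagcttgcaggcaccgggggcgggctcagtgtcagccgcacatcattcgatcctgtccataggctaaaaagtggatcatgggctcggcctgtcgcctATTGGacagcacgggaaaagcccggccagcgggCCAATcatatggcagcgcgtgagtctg
Hmgcs1 had 3 CCAAT matches, beginning 237, 176 and 45 bases before the start, and the TCACNCCAC match 137 bases before it. Mvk had 5 CCAAT matches and Mvd had 2.

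At the head of the pathway, Hmgcs1, which makes HMG-CoA, had 3019 and 2996 normalized counts in WT and 2025, 1584 and 1629 in KO (log2 difference -0.79, SE 0.20, limma, unadjusted p = 0.00527). It was below both WT libraries in all 3 KO libraries, at 57.7% of the WT level. Hmgcs1 lies on chromosome 13 from 119690379 to 119708260, plus strand. The next steps differed less. Mvk, mevalonate kinase, had 486 and 317 in WT and 462, 355 and 150 in KO (-0.43, overlapping), and Mvd, which makes isopentenyl pyrophosphate, had 512 and 322 in WT and 310.1, 228 and 242 in KO (-0.65). Pmvk, phosphomevalonate kinase, had 682 and 849 in WT and 890, 1201 and 829 in KO (0.34, overlapping). The KO values of Mvk ran from the WT range down to less than either WT library, with KO 3 lowest.

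Of the enzymes that interconvert or join isoprenoids, Idi1 had 988 and 1121 in WT and 1014, 646 and 588 in KO (-0.53). Fdps had 3255 and 3052 in WT and 2912, 2748 and 1489 in KO (-0.46). Fdft1, squalene synthase, had 2184 and 1938 in WT and 1489, 1835 and 1021 in KO (-0.55). KO 3 was the lowest library for all of these genes, and only Idi1 overlapped. Sqle, squalene epoxidase, had 2780 and 2230 in WT and 1707, 1774 and 1583 in KO (-0.56, SE 0.20, limma, unadjusted p = 0.0257). The 3 KO libraries of Sqle lay close to one another and below both WT libraries.

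The sterol-ring steps were mixed. Dhcr7, a reductase at the end of the pathway, had 836 and 624 in WT and 383, 542 and 568 in KO (-0.56), without overlap. Msmo1, Cyp51 and Nsdhl, which trim methyl groups from the sterol ring, had log2 differences of -0.56, -0.36 and -0.17 and overlapped. Lss, which closes the ring, had 302 and 551 in WT and 389, 718 and 209 in KO (-0.07), with KO libraries on both sides of the WT range.

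The regulators lay on the same side. Insig1, which holds the SREBP complex in the endoplasmic reticulum and is itself a target of SREBP, had 554 and 854 in WT and 424, 298 and 404 in KO (-0.89, SE 0.33, limma, unadjusted p = 0.0302). All KO libraries of Insig1 lay below both WT libraries. Srebf2, which encodes SREBP-2, had 1275 and 1235 in WT and 1195, 1039 and 922 in KO (-0.26), also without overlap and at 83.4% of the WT level.

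Library by library, the median position of the 18 genes against their mean over the 5 libraries was 0.31 in WT 1 and 0.33 in WT 2, and -0.05, -0.26 and -0.33 in KO 1, KO 2 and KO 3 on the log2 scale. The WT libraries, which were far apart for most marker lists, lay together here. This was not particular to the list. They also lay together for calcium handling genes (0.1 and 0.11), among other pathway lists, but not for desmosome genes (0.9 and -0.57). The number of members on the lower side stayed between 15 and 17 and the median between -0.75 and -0.48 in each of the 16 other settings of the fit. These settings are not all separate checks. The replicate number as a block repeated the median without KO 3 (-0.48), and the library group as a block that without KO 2 (-0.59). The median of -0.75 came with sex as a covariate, which sets KO 3 alone against the 2 WT libraries. Without WT 1, 14 of 18 lay below WT 2 in every KO library (77.8%, against 24.5% of all genes), and without WT 2, 13 of 18 lay below WT 1 (72.2%, against 26.4%). The 11 members without overlap in the full comparison must stay apart when a library is left out. They are therefore part of both counts by construction. The count at an unadjusted p under 0.05 (limma) was less stable. It was 3 without KO 3, where 124 of 16458 genes were lower at that threshold. With the replicate number as a block it was 1, where 88 of 16543 genes were lower.

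In the ameloblasts of the same mice, 16 of the 18 were on the higher side with a median of 0.31. Many other lists lay on that side too. Of the 25 pathway lists, 19 had a median above 0 in ameloblasts and 15 were below 0 in the stratum intermedium and above 0 there, although the median over all 15567 genes was 0.03. Ion transport genes (23 of 24 higher, median 0.56), hemidesmosome genes (9 of 9, 0.48), Notch pathway genes (17 of 20, 0.37) and stratum intermedium markers (13 of 13, 0.36) had higher ameloblast medians than the cholesterol genes. Markers of other cell types also differed there, with medians of -2.33 for red blood cell, -1.01 for osteoclast and 1.09 for muscle markers, and their part in these values was not tested. Mvd, singled out after its values were seen, had 293 and 314 in WT and 464, 516 and 394 in KO there, and Sqle had 3289 and 1789 in WT and 3980, 4428 and 3154 in KO. Ameloblasts thus had Mvd higher in all 3 KO libraries, where the stratum intermedium had it lower. In the test between the layers, 17 of 18 had a negative difference (against 50.4% of all genes) and 5 had an unadjusted p under 0.05 (against 4.8% of 15567 genes in either direction). Among them were Sqle (-1.22, limma, unadjusted p = 0.0168), Mvd (-1.24), Nsdhl (-1.10, on chromosome X) and Msmo1 (-1.26, limma, unadjusted p = 0.0391). The limma adjusted p was 0.864 for each of the 5. This test uses the same stratum intermedium libraries and is not independent of the first.

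**Figure D4:**
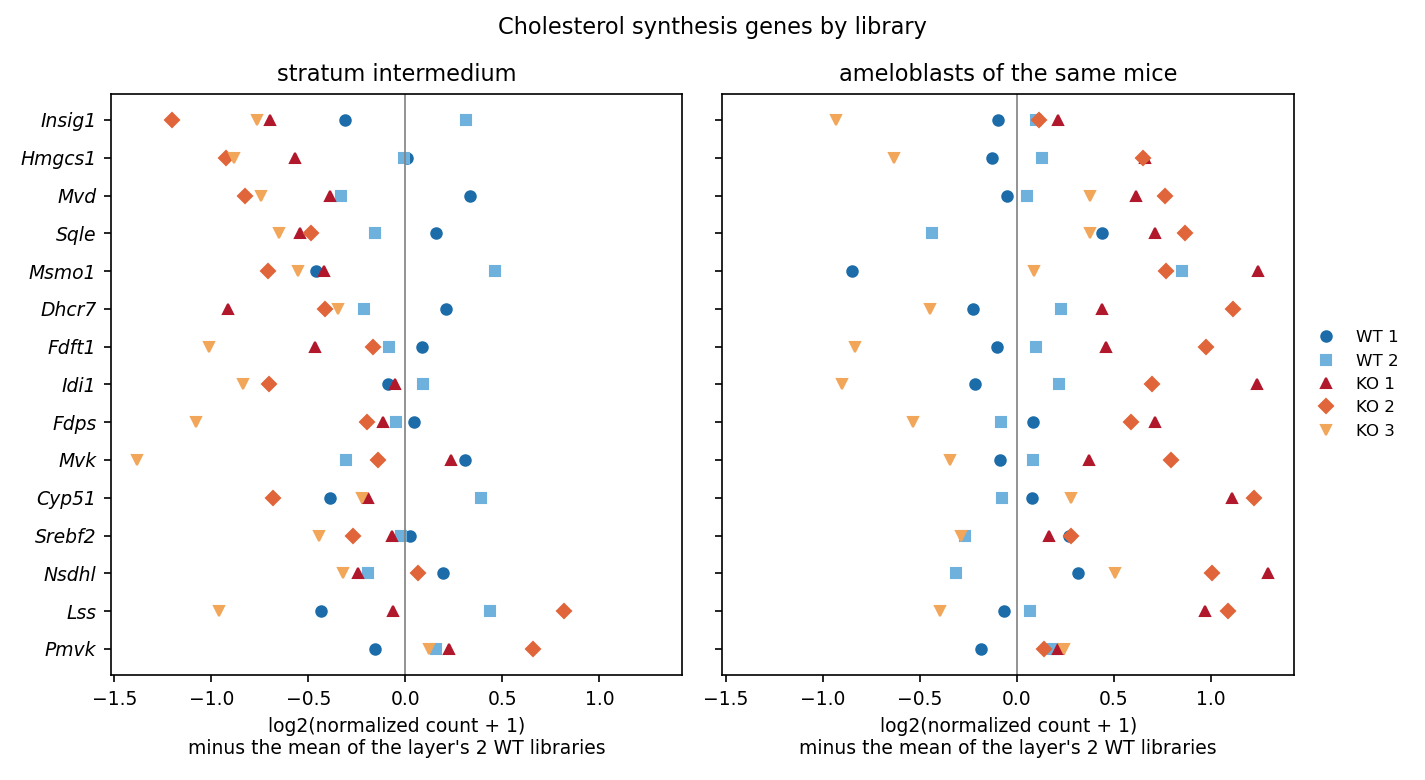
Log2(normalized count + 1) of 15 of the 18 cholesterol synthesis genes minus the mean of the layer's 2 WT libraries (horizontal axis) in the stratum intermedium (left) and in the ameloblasts of the same mice (right), 1 symbol per mouse, named by its stratum intermedium replicate. KO symbols lie mostly left of 0 in the stratum intermedium (17 of all 18 genes lower) and mostly right of 0 in ameloblasts (16 of all 18 higher), where KO 3 lies apart to the left for many genes.

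The junction genes were described by list, since claudin-10 is a junction protein. Of the 10 other claudins tested, 7 were on the higher side (median 0.12). Without overlap, 2 were higher (20%, against 7.76% of all genes) and 1 lower (10%, against 7.44%). Cldn9 had 0 and 2.2 normalized counts in WT and 28.7, 22.5 and 15.5 in KO, higher without overlap but at levels near the filter (3.66, SE 1.52, limma, unadjusted p = 0.0456). Cldn20 had 298 and 321 in WT and 262, 210.2 and 98.0 in KO, lower without overlap (-0.81), Cldn12 was the other higher one without overlap (0.32), and Cldn1, a barrier-forming claudin, had 3852 and 1820.5 in WT and 2963, 3146 and 2443 in KO. Cldn2, Cldn3, Cldn14, Cldn15, Cldn16, Cldn18, Cldn19, Cldn22, Cldn23 and Cldn25 were not among the genes tested. Of the other 19 tight junction and polarity genes, 11 were on the lower side (median -0.03). Of these 19, 2 were lower (10.5%, against 7.44% of all genes) and 1 higher (5.26%, against 7.76%) without overlap. Tjp1, the scaffold protein ZO-1 that binds claudins, had 2341 and 1644 in WT and 1501, 1150 and 1022 in KO (-0.70, SE 0.27, limma, unadjusted p = 0.0328). Mpp5, a polarity scaffold, had 1249 and 1102 in WT and 806, 877 and 806 in KO (-0.50), and Magi3, another scaffold, had 130.1 and 167 in WT and 318, 191 and 250.1 in KO (0.74). Tjp1 and Mpp5 were lower and Magi3 higher without overlap, while F11r, a junctional adhesion molecule, overlapped (0.04).

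Desmosomes hold this layer together, and 14 of 15 desmosome genes were on the lower side with a median of -0.28. Only 1 of them, Dsg3, separated the genotypes (6.67%, against 7.44% of all genes), with 575 and 300.4 in WT and 258, 289 and 206 in KO (-0.74, SE 0.40). Dsc2, a desmosomal cadherin, had 2009 and 900.4 in WT and 677, 1030.1 and 960 in KO, Dsg2 had 1298 and 666 in WT and 1070, 1129 and 1097 in KO, and Perp, a membrane protein of desmosomes, had 38469 and 16160 in WT and 17956, 28716 and 18146 in KO. WT 1 was the highest library for all of these. Without WT 1 the desmosome median was 0.44, and without WT 2 it was -0.97. The hemidesmosome genes, which anchor epithelium to its basement membrane, had 7 of 9 on the lower side (median -0.26) and none without overlap. Itga6 (-0.30) and Lama3 (-0.34) were examples, and Plec was on the higher side (0.16). The epithelial keratins had 7 of 10 lower (median -0.17), with Krt7 (-1.05), Krt18 (-0.99) and Krt6a (-0.52) overlapping. The shares of the stratum intermedium markers, which include desmosome and keratin genes, were highest in WT 1 and KO 2, and their part in these values was not tested.

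Of 12 adherens junction genes, 10 were on the lower side (median -0.12). Without overlap, 1 was higher and 1 lower (8.33% each, against 7.76% and 7.44% of all genes). Nectin2, an adhesion molecule of the nectin family, had 675 and 439 in WT and 775, 1315 and 955 in KO (0.86, SE 0.33, limma, unadjusted p = 0.0323). It was the member higher without overlap, while Ctnnb1, beta-catenin, was lower without overlap by a small margin (15506 and 15637 in WT, 14983, 14488 and 14053 in KO). Cdh1 (-0.36) and Cdh2 (-0.52), the classical cadherins, overlapped. Of 10 gap junction genes, 6 were on the lower side (median -0.09) and none was without overlap. Gja1, connexin 43, had 95943 and 61933 in WT and 48812, 74626 and 61934 in KO, where KO 1 was lowest and WT 1 highest. Gjb5 (-1.92) and Gja4 (0.33) had standard errors larger than their differences.

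Of 20 Notch pathway genes, 14 were on the lower side with a median of -0.22. Jag1, a ligand, had 2592 and 1868 in WT and 1678, 1556 and 1128 in KO (-0.62, SE 0.26, limma, unadjusted p = 0.0496). Maml3, a co-activator, had 742 and 790.3 in WT and 525, 556 and 488 in KO (-0.55), and Mfng, which modifies the receptors, was lower by a narrow margin (-0.19). These 3 (15% of the list, against 7.44% of all genes) separated the genotypes. The receptor Notch2 had 3486 and 1542 in WT and 1317, 2210.0 and 1611 in KO (-0.47), and Hes1, a target, had 1404 and 424 in WT and 599, 845 and 943 in KO (0.02). Receptor and target overlapped between the genotypes. The list's median kept its sign in all 16 other settings (-0.37 to -0.21), not all of which are separate checks.

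Among other signalling lists, Shh, the Hedgehog ligand, had 3058 and 1562 in WT and 1587, 931 and 1362 in KO (-0.79, SE 0.36), 9 of 13 Hedgehog genes were on the lower side (median -0.22), and the receptor gene Ptch1, itself a target, overlapped (0.12). Hhip (0.68) and Gli3 (-0.28) also overlapped. Without WT 1 the Hedgehog median was 0.11. The 22 BMP and activin genes were balanced (13 higher, median 0.04, none without overlap), with Inhba, a subunit of activin A, at 1736 and 1131 in WT and 2611, 1315 and 3723 in KO (0.74). Grem1 (2.65), Id1 (0.47) and Id3 (0.05) overlapped as well. The 27 Wnt genes were also balanced (13 higher, 14 lower, median -0.03). Without overlap, 3 were higher (11.1%, against 7.76% of all genes) and 4 lower (14.8%, against 7.44%). Dkk3, a secreted protein of the Dickkopf family, had 2750.1 and 2953 in WT and 4513, 3795 and 4004 in KO (0.52, SE 0.18, limma, unadjusted p = 0.0218). The receptors went to both sides without overlap, Fzd3 at -0.62 and Fzd2 at 0.48, and Wif1, a secreted Wnt inhibitor, overlapped (-0.10).

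The transport genes had members apart in both directions. Of 8 phosphate genes, 5 were lower (median -0.29). Without overlap, 1 was higher and 1 lower (12.5% each, against 7.76% and 7.44% of all genes). The phosphate transporters Slc20a2, with 4047 and 4278 in WT and 3051, 3797 and 2442 in KO (-0.45), and Slc20a1, with 468 and 403 in WT and 494, 607 and 790.0 in KO (0.51), separated the genotypes in opposite directions, and Xpr1 overlapped (-0.50). Of 24 genes that carry sodium, potassium, chloride or magnesium, 12 were on each side (median -0.01), and 4 were higher and 4 lower without overlap (16.7% each, against 7.76% and 7.44% of all genes). Clcn7, a lysosomal chloride transporter, had 1098 and 1329 in WT and 830.1, 757 and 860 in KO (-0.57, SE 0.23, limma, unadjusted p = 0.0401). Scnn1a, a subunit of the epithelial sodium channel, had 66.5 and 44.0 in WT and 23.3, 0 and 6.8 in KO (-3.26), and Slc12a4, a potassium-chloride cotransporter, had 1162 and 1446 in WT and 1801, 2360 and 1486 in KO (0.51). These 3 did not overlap. The others without overlap, named to complete the count, were Kcnj15 (-0.71) and Lrrc8a (-0.17) on the lower side and Cnnm2 (0.75), Slc12a7 (0.42) and Kcnq1 (1.01) on the higher side. Atp1b3, a sodium pump subunit, overlapped (0.05). Of 16 calcium genes, 11 were lower (median -0.15), with Itpr1, a calcium release channel, at -0.46 without overlap, Orai2 at -0.60 and Slc24a4 at -1.96. Calb1, a calcium buffer, had 34848 and 35582 in WT and 36355, 42493 and 8439 in KO, where KO 3 alone was low. Of 15 bicarbonate and pH genes, 12 were lower (median -0.10), and 3 were lower without overlap (20%, against 7.44% of all genes). Atp6v1a, a subunit of the vacuolar proton pump, had 4248 and 6267 in WT and 3358, 2975 and 4104 in KO (-0.58, SE 0.24, limma, unadjusted p = 0.045). The bicarbonate transporter Slc4a7 (-0.87) and the anion transporter Slc26a1 (-1.98) were also lower without overlap, while Car3, a carbonic anhydrase, overlapped (0.43).

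Mitochondrially encoded genes were lower for 11 of 13 members with a median of -0.24, and 7 (53.8%, against 7.44% of all genes) did not overlap. mt-Atp6, a subunit of ATP synthase, had 41764 and 52218 in WT and 36528, 30584 and 34715 in KO (-0.46, SE 0.19, limma, unadjusted p = 0.0419). mt-Nd6 (-0.36) and mt-Nd4 (-0.31), subunits of complex I, also lay lower in every KO library, whereas mt-Cytb overlapped (-0.24). These genes are transcribed as joint precursors and are not independent of one another. In ameloblasts 10 of 13 were lower with a median of -0.25. The 22 nuclear respiratory chain genes lay on the other side, 18 higher, with a median of 0.12 and none lower without overlap. Sdhb of complex II had 8825 and 7893 in WT and 9394, 9898 and 8941 in KO, higher without overlap (0.17). Uqcrc1 (0.20) and Atp5b (0.13) overlapped. Without WT 2 the median of the nuclear genes was -0.07. That of the mitochondrial genes stayed between -0.33 and -0.16 in all 16 other settings, not all of which are separate checks.

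Collagens were on the higher side for 11 of 14 members with a median of 0.34, and 4 (28.6%, against 7.76% of all genes) did not overlap. Col3a1, a fibrillar collagen of soft connective tissue, had 42930 and 58077 in WT and 88538, 71744 and 69219 in KO (0.61, SE 0.22, limma, unadjusted p = 0.0253). Col12a1, a fibril-associated collagen, had 2928 and 6507 in WT and 6802, 8273 and 8952 in KO (0.87, SE 0.33, unadjusted p = 0.0344). The basement membrane genes Col4a2 (0.36) and Col18a1 (0.31) were the other members without overlap, Col6a2 (0.66) overlapped, and Col1a1, the main chain of bone and dentin collagen, had 185938 and 563493 in WT and 330773, 307601 and 296138 in KO (-0.06). WT 1 was the lowest library for 12 of the 14 collagens, as it was for the mesenchyme markers. Without WT 1 the collagen median was 0.02 and without WT 2 it was 0.76. The fibroblast share of each library (2.10% and 5.25% in WT, 3.21% to 3.68% in KO) did not separate the genotypes, and its part in the collagen values was not tested.

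The remaining lists were near the median of all genes or rested on 1 library. Cytosolic ribosomal protein genes had 16 of 28 lower (median -0.02), from Rpl5 (-0.23) to Rps14 (0.18), with Rpl18 at 0.12 and Rpl13 at 0.00, and none without overlap. The unfolded protein response genes had 14 of 25 lower (median -0.03). Sdf2l1, a chaperone cofactor, had 328 and 502 in WT and 601, 1041 and 518 in KO (0.76), and Trib3 (1.58) was also higher without overlap, while the chaperones Hspa5 (-0.28) and Pdia3 (-0.26) overlapped. Glycolysis and hypoxia genes had 17 of 22 higher (median 0.22), with KO 2 at the top for Eno1, which had 26394 and 28883 in WT and 26244, 51536 and 20851 in KO, and for Pfkp, which had 483 and 427 in WT and 451, 1302 and 495 in KO. Without KO 2 the median was -0.11. Against that side, Hk2, a hexokinase, had 1091 and 1115 in WT and 718, 792 and 604 in KO (-0.65, SE 0.24, limma, unadjusted p = 0.0287), and Vegfa, a vascular growth factor, had 111 and 88.8 in WT and 51.6, 52.3 and 28.7 in KO (-1.20). Hk2 and Vegfa were the 2 members lower without overlap (9.09% of the list, against 7.44% of all genes). Immediate early and heat shock genes had 14 of 22 lower (median -0.06). Hspb1, a small heat shock protein, had 2960.5 and 2535 in WT and 6115, 5044 and 3206 in KO (0.76, SE 0.29, limma, unadjusted p = 0.0333), Ier3 was lower without overlap (-0.63), and Btg2 (-0.86) and Hspa8 (-0.15) overlapped. Interferon response genes had 12 of 20 lower (median -0.23). Irf1, a transcription factor, had 402 and 351 in WT and 200.4, 96.2 and 301 in KO (-1.06), and Ifit3 (-0.82), Ifit2 (-2.07) and B2m (0.27) overlapped.

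Marker lists of the neighbouring cell types were described the same way. Secretory ameloblast markers had 7 of 11 lower (median -0.41, none without overlap). None of the 11 had an unadjusted p under 0.05 (limma). With library group as a block 5 were lower at that threshold, where 181 of 16543 genes were lower. The median was -1.08 with sex as a covariate, a fit that sets the only male KO library against WT. Amelx, the main enamel matrix protein, had 74814 and 166208 in WT and 73983, 117586 and 16813 in KO. Maturation ameloblast markers had 8 of 10 lower (median -0.83). Itgb6, an integrin subunit, had 829 and 612 in WT and 408, 313 and 440 in KO (-0.89, SE 0.31, limma, unadjusted p = 0.0218). It was the only one of these maturation markers without overlap (10% of the list, against 7.44% of all genes). Outer enamel epithelium and stellate reticulum markers had 7 of 9 lower (median -0.05), Fgf1 being lower without overlap (-0.60). Medians were 0.01 for odontoblast and pulp markers (5 of 10 lower), -0.07 for osteoblast and osteocyte markers (6 of 10 lower), -0.11 for osteoclast markers (8 of 8 lower), 0.19 for fibroblast markers (8 of 11 higher), 0.15 for endothelial markers (8 of 10 higher), -0.95 for red blood cell markers (5 of 6 lower), 0.03 for leukocyte markers (7 of 14 lower) and -0.41 for Schwann cell and neuron markers (6 of 10 lower). Most of these medians turned with the WT library left out. Without WT 1 and without WT 2 they were -1.4 and 1.08 for osteoclast markers (8 of 8 lower and 8 of 8 higher), -0.81 and 0.80 for odontoblast markers, -0.86 and 0.82 for osteoblast markers, -0.92 and 0.97 for leukocyte markers, and -0.30 and 0.70 for fibroblast markers. The endothelial and the Schwann cell and neuron medians kept their sign under both. The red blood cell median followed WT 2, whose Hba-a2 was 85990.2 against 13275 to 22328 in the other libraries, and was 0.53 without it. Among the 13 stratum intermedium markers, 10 were on the lower side (median -0.16), but the median was 0.63 without WT 1 and -0.94 without WT 2.

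**Figure D5:**
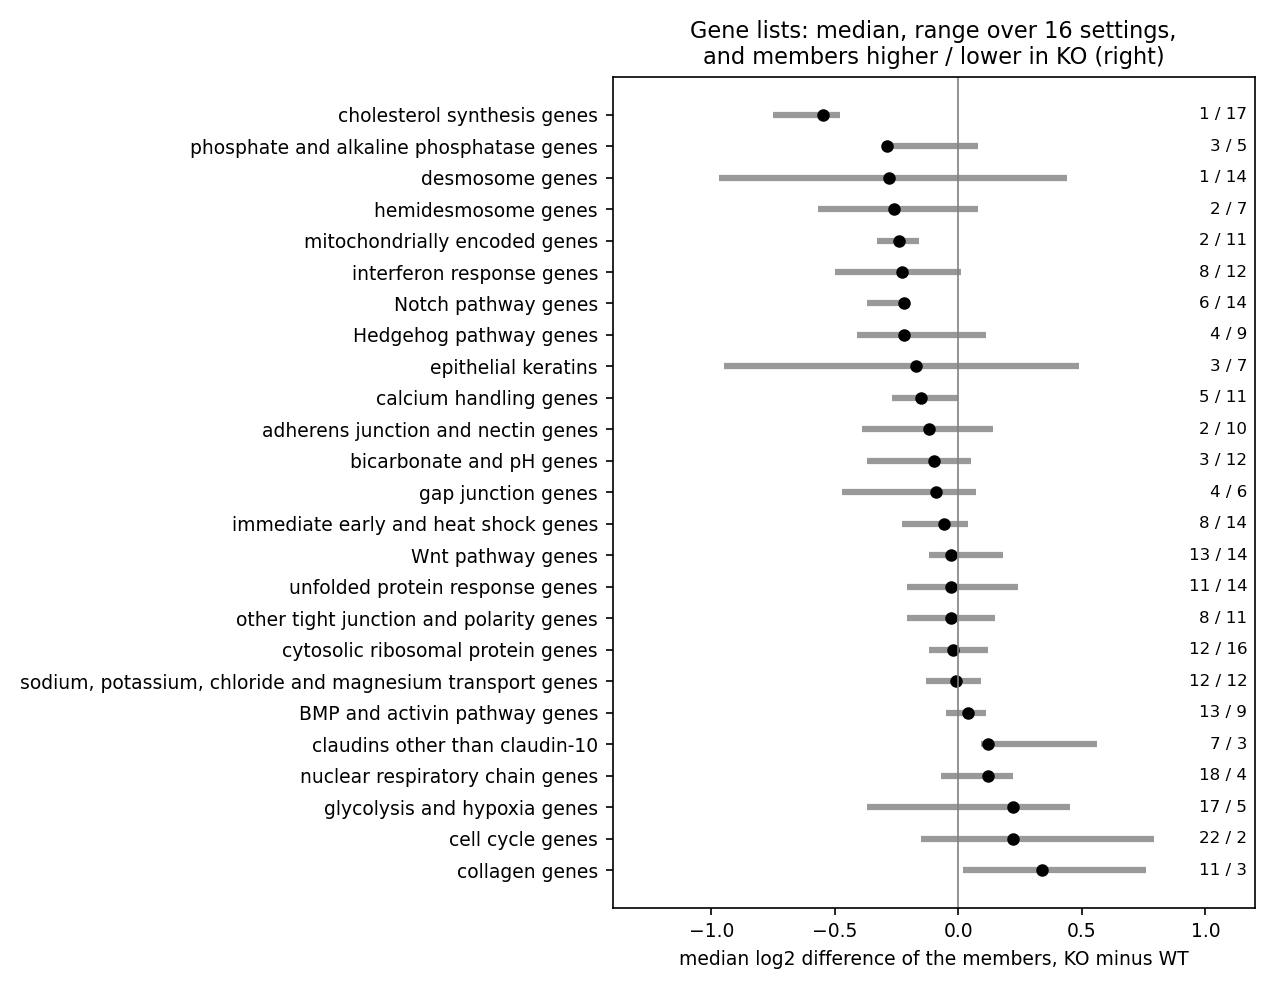
Median log2 difference (KO minus WT, horizontal axis) of the members of 25 gene lists in the stratum intermedium (points), with the range over 16 other settings of the fit (grey lines) and the number of members higher and lower in KO at the right. The cholesterol synthesis genes have the lowest median (-0.55, range -0.75 to -0.48), while the desmosome and keratin lists cross 0.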

How the data were processed

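Messenger RNA of laser-captured stratum intermedium was compared between 3 KO and 2 WT mice. The authors deposited 1 table per layer of normalized counts (a signal scaled between libraries, not whole reads), per the file headers and the table's name, which also says that outliers were left out. GRCm38, STAR 2.5.2b, Picard 2.8.1, featureCounts and DESeq are named in the submitters' processing notes. Whole reads could not be recovered, so no count test was run, and the depth of each library is unknown.

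Genes with a mean of at least 10 were tested on log2(normalized count + 1) with limma 3.58.1 (trend, R 4.3.3), two-sided and Benjamini-Hochberg adjusted over all 16543. These differences understate the change of low genes. The test between layers used each mouse's stratum intermedium minus ameloblast log2 value, since the layers were normalized separately. "Without overlap" means every KO library on 1 side of both WT libraries. Named genes are Cldn10, Alpl, Notch1 and Krt17, the 12 higher and 12 lower named genes of smallest p without overlap (none passed adjustment), the 3 members of smallest p and the one with most counts in each list, and the 3 genes of smallest p between layers. The members and the 38 lists were chosen with earlier results of these data known, and no list was tested as a set. Positions are from GENCODE M21. The fitting code was tested on simulated data. Figures used Python 3.11.15 and matplotlib 3.10.9. Values of some genes in the lists and among those named by smallest p are not reported here, though the counts and medians include them.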

Additional observations from a re-analysis of the deposited data

How the results depend on the processing

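With 2 WT libraries, each WT library carries much of the result. No gene passed an adjusted p of 0.05 (limma) in any setting, nor an adjusted p of 0.1 in the main design, and no gene passed in the test between the layers. Of the unadjusted count of 340, leaving out 1 library gave 237 to 1713. Fitting the replicate block (the replicate number of the labels) gave 185. The numbers are not mouse numbers, only 2 pairs share one, and the libraries of a pair carry different group numbers. Their deviations correlated at -0.186 and -0.133, and the block leaves KO 3 without a partner. The library group as a block gave 489. It pairs WT 2 with KO 1 and WT 1 with KO 3 and leaves KO 2 without a partner. The deviations of its pairs correlated at 0.186 and 0.006. With 2 WT libraries, the deviations of WT 1 and WT 2 mirror each other. The 0.186 for WT 2 and KO 1 is therefore the -0.186 for WT 1 and KO 1 with its sign turned. These correlations cannot show whether a number or a group marks a shared batch. The Cldn10 log2 difference kept its direction throughout (-3.68 without WT 2 to -2.06 without WT 1). The 24 genes named by smallest p kept their sign in every setting in which they were tested. Neither Cldn10 nor these 24 overlapped between the genotypes, and such genes keep their sign whichever library is left out. Their kept sign was thus largely fixed in advance. With 1 library left out, Alpl ran from -0.42 to 0.03 (0.02 without WT 1 and 0.03 without KO 1), Notch1 from -0.46 to 0.33 (0.33 and 0.16 without the same libraries) and Krt17 from -0.94 to 1.34. Krt17 turned to -0.11 with library weights, -0.43 with library group as a block, -0.51 with sex as a covariate, -0.94 without WT 2 and -0.43 without KO 2. Of the 38 list medians, 10 kept their sign in all 16 settings, which are not all separate checks. Robust variance cannot change a difference. A block gives the same differences as leaving out its unpartnered library, KO 3 for the replicate number and KO 2 for the library group. With sex as a covariate, the differences are those of KO 3 against the 2 WT libraries, because KO 1 and KO 2 are the only females. Where 1 library was left out of WT, the lone WT library was assumed to vary like the KO group.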

Other observations

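The genes that differed most between the layers by p, after Zfp865, were unnamed gene models. Gm16144 had 26.4 and 16.3 normalized counts in WT and 5.7, 4.9 and 23.7 in KO stratum intermedium, and 7.2 and 2.8 in WT and 20.2, 15.2 and 53.0 in KO ameloblasts (difference between the layers -3.38, limma, unadjusted p = 0.00011, adjusted p = 0.857). Gm43942 had 19.9 and 34.1 in WT and 12.5, 4.9 and 3.1 in KO stratum intermedium, and 3.1 and 5.6 in WT and 11 to 22.0 in KO ameloblasts (-3.78, limma, unadjusted p = 0.000211, adjusted p = 0.864). Gm16144 is annotated as antisense to Anxa2. Gm6565, singled out after its values were seen, was listed at 0 in both WT stratum intermedium libraries and at 105 and 320 in KO 1 and KO 3, with KO 2 close to KO 1, while the WT ameloblast libraries of the same mice held 106 and 120.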
